A study of Mus musculus with 41 samples.

Results

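*Col1a1* and *Col3a1*, the genes of the fibrillar collagen chains α1(I) and α1(III), were 2 of the 54 mouse target genes measured by TaqMan qPCR in tissue of 41 NSG mice. They were chosen by their rows in the deposited table of threshold cycles (Ct), and both gave a Ct in each of the 41 mice. The study asked how mouse tissue responds to a degradable electrospun nanomesh, called P nano-mesh in the labels and P here, with or without endometrial mesenchymal stem/stromal cells (eMSC). All mice were females of the NSG strain, an immunodeficient strain without mature T, B or natural killer cells, and the labelled tissue was skin. The 6 groups were the sham-operated controls (7 mice), P (6 mice) and P+eMSC (7 mice) at 1 week, and the sham controls (6 mice), P (8 mice) and P+eMSC (7 mice) at 6 weeks. The eMSC were human SUSD2+ cells from several women, labelled with mCherry and added on top of the mesh, which lay in abdominal pockets under the skin. Ages are not given in the sources used here, and some animals had been reused from an earlier study.

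Collagen I is the main fibrous protein of skin, tendon and scar, and *Col1a1* encodes the chain that is present as a pair in its triple helix. Collagen III is a homotrimer of the *Col3a1* product, which forms thinner fibrils together with collagen I and is abundant in early wound tissue and in distensible organs. Fibroblasts are the main source of both, and transforming growth factor-β is a known inducer of both genes. Around an implant, both collagens are laid down as the tissue integrates the material or walls it off. Assays of different genes cannot be set against each other in absolute terms without their efficiencies, which are not given in the sources used here, so *Col1a1* and *Col3a1* were compared only between mice.

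In the RefSeq annotation of GRCm38.p6, *Col1a1* lies at chr11:94936224-94953042 and *Col3a1* at chr1:45311538-45349706. The upstream sequence of *Col3a1* is shown because the results below turn on how closely this gene moved with *Col1a1*, for which the RefSeq promoter table used here has no entry. The 250 bases before the annotated start of *Col3a1*, at chr1:45311288-45311537 on the plus strand, are printed with the hexamer TATAAA in capitals.
Col3a1: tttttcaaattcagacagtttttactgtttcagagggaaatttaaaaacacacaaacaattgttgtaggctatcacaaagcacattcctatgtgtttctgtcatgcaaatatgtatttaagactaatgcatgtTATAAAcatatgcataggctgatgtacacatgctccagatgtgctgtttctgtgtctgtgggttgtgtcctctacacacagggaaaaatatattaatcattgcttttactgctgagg
The hexamer began 117 bases before the annotated start, and 12.4% of the 32851 RefSeq windows of this length held it on either strand. The pentamer CCAAT, which 33.8% of the windows held on either strand, was not among these letters.

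The level of a gene in a mouse was taken as the Ct of 18S ribosomal RNA (*Rn18s*) minus the Ct of the gene. It is a log2 scale, on which a higher value means more transcript and 1 cycle stands for a doubling at full assay efficiency. The folds given below assume that efficiency. *Col1a1* and *Col3a1* were early, strong signals. Their Ct values ran from 6.46 to 19.2 with a median of 9.72 for *Col1a1*, and from 6.70 to 19.8 with a median of 10.4 for *Col3a1*. The Ct of 18S ran only from 6.20 to 7.79. A 14-cycle preamplification preceded the assays, which lowers all Ct values.

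In the sham controls at 1 week, the *Col1a1* level was -5.78 in the lowest of the 7 mice, -2.77 at the median and 0.099 in the highest. In the sham controls at 6 weeks it was -3.90 in the lowest of the 6 mice, -2.83 at the median and -1.60 in the highest. The sham medians of the 2 weeks thus lay close together, but the mice at 1 week were spread over a 58.7-fold range and those at 6 weeks over a 4.95-fold range. The high end at 1 week was mouse 2269, the only mouse in which *Col1a1* crossed the threshold before 18S, and the low end was mouse 2354.

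With P, the *Col1a1* level at 1 week was -5.96 in the lowest of the 6 mice, -2.71 at the median and -0.26 in the highest. At 6 weeks with P it was -11.4 in the lowest of the 8 mice, -3.44 at the median and -1.31 in the highest. At 1 week the P mice fell into a high pair (2268 and 2308), a middle pair and a low pair (133 and 2355), and 5 of the 6 lay within the range of the sham mice. At 6 weeks 4 of the 8 P mice lay within the sham range, 3 lay below it and 1 above.

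With P+eMSC, the *Col1a1* level at 1 week was -7.74 in the lowest of the 7 mice, -3.01 at the median and -0.15 in the highest. At 6 weeks with P+eMSC it was -4.52 in the lowest of the 7 mice, -1.96 at the median and -0.15 in the highest. The P+eMSC mice overlapped the sham controls in both weeks. At 6 weeks, 3 of the 7 lay within the sham range, 2 above it and 2 below it, so the higher median came with a wider spread on both sides.

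*Col3a1* was spread between mice in much the same way. In the sham controls its level was -6.33 in the lowest mouse, -4.11 at the median and -0.14 in the highest at 1 week. At 6 weeks the sham mice ran from -4.65 to -1.69 around a median of -3.72. The sham mouse that was highest at 1 week was again 2269, and the lowest was again 2354.

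The *Col3a1* level with P was -6.81 in the lowest mouse, -2.81 at the median and -1.26 in the highest at 1 week, and -12.0, -4.39 and -2.13 at 6 weeks. With P+eMSC it was -7.68, -3.15 and -1.37 at 1 week and -5.77, -2.74 and -0.34 at 6 weeks. As with *Col1a1*, 5 of 6 P mice and 6 of 7 P+eMSC mice at 1 week lay within the range of the sham mice. At 6 weeks 4 of the 8 P mice lay below the sham range and none above it, and the P+eMSC mice again lay on both sides, with 2 above and 2 below.

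**Figure D1:**
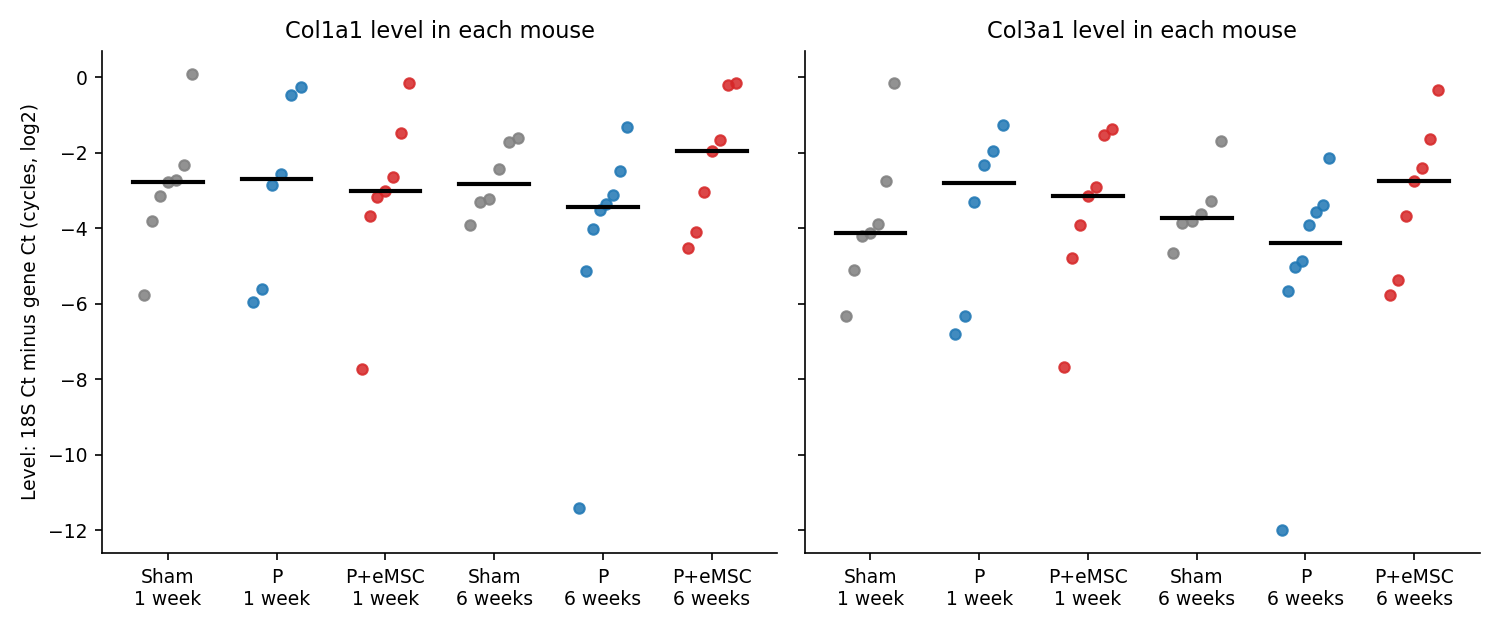
Level of *Col1a1* (left) and *Col3a1* (right) in each mouse, as the Ct of 18S minus the Ct of the gene in cycles (log2), by group. Each point is 1 mouse and each bar the group median. The groups overlap for both genes, and 1 P mouse at 6 weeks, mouse 52, lies at -11.4 and -12.0.

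Mouse 52 of the P group at 6 weeks stood apart from all others. It gave no Ct for 31 of the 54 genes, had the highest 18S Ct (7.79), and its median level over the genes detected in all mice was -16.9, against -10.5 in the next lowest P mouse of that week. Mouse 78 of the P+eMSC group at 1 week, the lowest of its group for both collagens, gave no Ct for 6 genes. In the other 39 mice at most 1 gene was undetected. The part of RNA yield in these low values was not tested. In bulk tissue, fewer collagen-producing cells and less collagen RNA per cell cannot be told apart.

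Ordered by the median level of *Col1a1*, P+eMSC at 6 weeks came first, followed by P at 1 week, the sham controls at 1 week, the sham controls at 6 weeks, P+eMSC at 1 week and P at 6 weeks. For *Col3a1* the order was P+eMSC at 6 weeks, P at 1 week, P+eMSC at 1 week, the sham controls at 6 weeks, the sham controls at 1 week and P at 6 weeks. Both orders began with P+eMSC at 6 weeks and ended with P at 6 weeks. No neighbours in either order differed beyond their spread, with exact Mann-Whitney p-values between 0.397 and 1 for *Col1a1* and between 0.366 and 0.945 for *Col3a1*. Neighbours in a sorted order have the smallest gaps between medians, so these tests cannot decide whether the order as a whole is real.

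Against the sham controls, neither collagen differed at the study's threshold with P or with P+eMSC in either week. The shift is the median of all differences between a mouse of one group and a mouse of the other. At 1 week the shift with P was 0.040 cycles for *Col1a1* (exact 95% interval -2.94 to 2.87, p = 1, exact Mann-Whitney test) and 0.69 for *Col3a1* (-2.70 to 2.95, exact p = 0.731). In the whole panel, 5.56% of the 54 genes were called in this comparison, all 3 of them lower with P, whereas against the panel median 4 others were higher and 1 lower.

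At 6 weeks the shift of *Col1a1* with P was -0.84 cycles (exact 95% interval -2.68 to 0.55, exact p = 0.228), or 0.56 of the sham level. That of *Col3a1* was -1.004 (-3.17 to 0.47, exact p = 0.228), or 0.499 of the sham level. Of the 54 genes 25.9% were called here, all 14 of them lower with P, and the median shift over the panel was -0.83. The 2 collagens sat near the middle of the panel, 29th and 31st from the top. Undetected values were left out of the tests, so the shifts of 31 of the 54 genes lack mouse 52, while those of the collagens include it. The ranks and the panel median thus set shifts from unlike sets of mice side by side. The intervals run from 0.16 to 1.47 times the sham level for *Col1a1* and from 0.11 to 1.39 times for *Col3a1*. When the panel median of each mouse (23 genes) replaced 18S, the shifts turned to 0.56 for *Col1a1* (exact p = 0.108) and 0.58 for *Col3a1* (exact p = 0.0813), and none of the 14 panel genes was called, while 7 others were higher and 0 lower. The 23 genes included both collagens and, of the 14, *Timp2*, *Timp3*, *Timp4*, *Tgfb3*, *Tgfbr1* and *Itgb1* among others. A reference built from them takes up part of any change they share, so it cannot test such a change. Of the 14 mice, those numbered below 1000 gave shifts of -1.87 and -1.84 and those above 2000 gave 1.11 and 0.99, on 5 P and 4 sham mice and on 3 and 2. Without sham mouse 401 the *Col3a1* shift was -0.35.

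For P+eMSC against the sham controls, the shift of *Col1a1* was -0.036 cycles at 1 week (exact 95% interval -3.11 to 2.59, exact p = 1) and 0.37 at 6 weeks (-1.45 to 2.29, exact p = 0.731). For *Col3a1* the shifts were 0.72 at 1 week (-2.77 to 2.69, exact p = 0.71) and 0.69 at 6 weeks (-1.97 to 2.24, exact p = 0.628). In both of these comparisons 0% of the panel was called by the exact Mann-Whitney test, no gene had an unadjusted p below 0.05, and limma likewise called none. The P and P+eMSC comparisons of a week share their sham mice. P against the sham controls and P+eMSC against P share their P mice. A fall in the former and a rise in the latter are thus not separate findings. At 6 weeks, mice numbered below 1000 gave shifts of -1.39 for *Col1a1* and -1.48 for *Col3a1* (2 P+eMSC and 4 sham mice), and those above 2000 gave 2.10 and 1.79 (5 and 2 mice).

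The direct comparison of P+eMSC with P asked whether the cells changed the collagen transcripts around the mesh. At 1 week the shift was -0.25 cycles for *Col1a1* (exact 95% interval -2.91 to 2.95, exact p = 0.836) and -0.18 for *Col3a1* (-2.66 to 3.40, exact p = 0.945), and 0% of the panel was called. By limma and at an unadjusted p below 0.05 the panel count was also 0, and against the panel median 5 genes were lower with P+eMSC and 0 higher.

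At 6 weeks the shift of P+eMSC against P was 1.43 cycles for *Col1a1* (exact 95% interval -0.65 to 3.82, exact p = 0.189) and 1.43 for *Col3a1* (-0.74 to 4.03, exact p = 0.281). These shifts, 2.69-fold and 2.70-fold, did not pass the threshold, and adjusted over the 54 genes the p-values of the exact Mann-Whitney test were 0.409 and 0.474. The intervals contain no change as well as gains of 14.2-fold and 16.3-fold. In this comparison 18.5% of the panel was called, all 10 genes higher with P+eMSC, and the panel median shift was 1.15. The count was 19 without mouse 60 and 18 without mouse 2210. Here too the shifts of 31 of the 54 genes lack mouse 52, which those of the collagens include. Against the panel median the collagen shifts turned to -0.35 (exact p = 0.536) and -0.38 (exact p = 0.463), and 1 panel gene was higher and 1 lower.

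From 1 to 6 weeks, the shift of the *Col1a1* level was 0.31 cycles in the sham controls (exact 95% interval -1.57 to 2.08, exact p = 0.945), -0.89 with P (-3.76 to 2.27, exact p = 0.491) and 0.68 with P+eMSC (-1.51 to 3.22, exact p = 0.71). For *Col3a1* the corresponding shifts were 0.43 (-1.55 to 2.47, exact p = 0.366), -1.51 (-3.72 to 1.95, exact p = 0.345) and 0.41 (-2.21 to 2.81, exact p = 0.805). The shifts were negative for both collagens in the P mice and positive in the other groups, and none passed the threshold. Against the panel median they were negative in all 3 groups. Of the panel, 3.7% was called in the sham controls, 0% with P and 0% with P+eMSC, with no gene at an unadjusted p below 0.05 in the last 2 by this test and none called by limma.

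Whether the change with time differed from that of the sham controls was tested as an interaction in limma. For P it was -1.55 ± 1.66 cycles (SE) for *Col1a1* (limma adjusted p = 0.736) and -1.72 ± 1.66 for *Col3a1* (limma adjusted p = 0.736). For P+eMSC it was 0.67 ± 1.66 for *Col1a1* and 0.18 ± 1.65 for *Col3a1* (limma adjusted p = 0.999 for both). No gene was called, 0% in each interaction, and none had an unadjusted p below 0.05. The interaction with P was below 0 in 50 of the 54 genes, with a median of -1.35. Without mouse 52 it was -0.54 for *Col1a1* and -0.73 for *Col3a1*. Against the panel median it turned to 0.30 and 0.13, and the interaction of *Col3a1* with P+eMSC turned to -0.18.

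**Figure D2:**
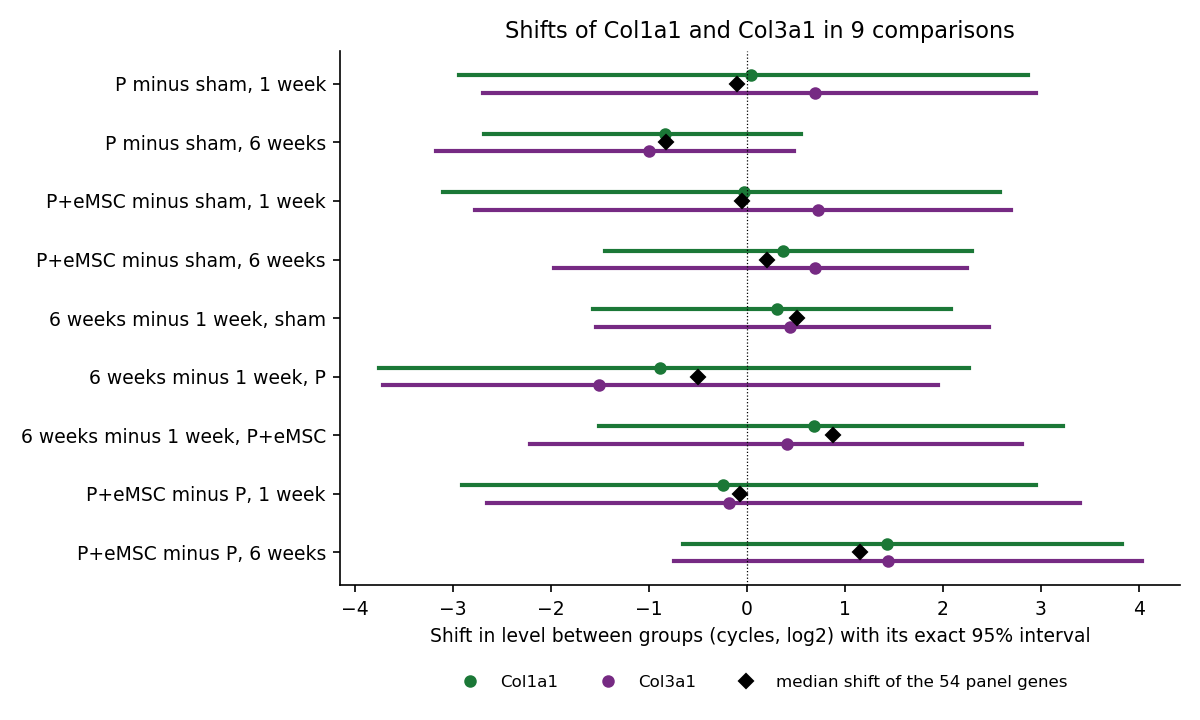
Shift in level of *Col1a1* and *Col3a1* in the 9 comparisons, in cycles (log2). Points are Hodges-Lehmann shifts, lines their exact 95% intervals, and diamonds the median shift of the 54 panel genes. Each interval contains 0, and at 6 weeks both collagens lie close to the panel median, at -0.83 for P against sham and 1.15 for P+eMSC against P. In these comparisons mouse 52 enters the collagen shifts but not those of 31 panel genes.

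*Col1a1* and *Col3a1* tracked each other from mouse to mouse. In 36 of the 41 mice both lay on the same side of their group mean. In all 6 groups the mouse with the lowest *Col1a1* also had the lowest *Col3a1*, and in 4 of the 6 the highest mouse was the same. The pooled SD within groups was 2.21 cycles for *Col1a1* and 2.20 for *Col3a1*, or about 4.6-fold, while that of the difference between them was 0.59 cycles, or 1.51-fold. Without mouse 52 these SDs were 1.82, 1.84 and 0.60.

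The difference between the 2 genes needs no reference gene, since 18S cancels out of it. It is given as the Ct of *Col3a1* minus the Ct of *Col1a1*, so a larger value means more *Col1a1* relative to *Col3a1*. Over all 41 mice it ran from -0.30 to 2.03 cycles with a median of 0.75, and *Col1a1* had the earlier Ct in 36 mice and *Col3a1* in 5. The full range of the difference was thus 2.34 cycles, against 12.7 for the Ct of *Col1a1* and 13.1 for that of *Col3a1*.

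In the sham controls the difference was 0.24 in the lowest mouse, 1.08 at the median and 1.38 in the highest at 1 week, and -0.034, 0.66 and 2.03 at 6 weeks. With P it was -0.25, 0.77 and 1.46 at 1 week and 0.23, 0.81 and 1.51 at 6 weeks. With P+eMSC it was -0.10, 0.27 and 1.38 at 1 week and -0.30, 1.26 and 2.03 at 6 weeks. The lowest and the highest medians thus both belonged to P+eMSC, at 1 and at 6 weeks, and the ranges of all 6 groups overlapped. In the order of the medians no neighbouring groups differed (exact p between 0.534 and 1), which again cannot test the order as a whole.

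**Figure D3:**
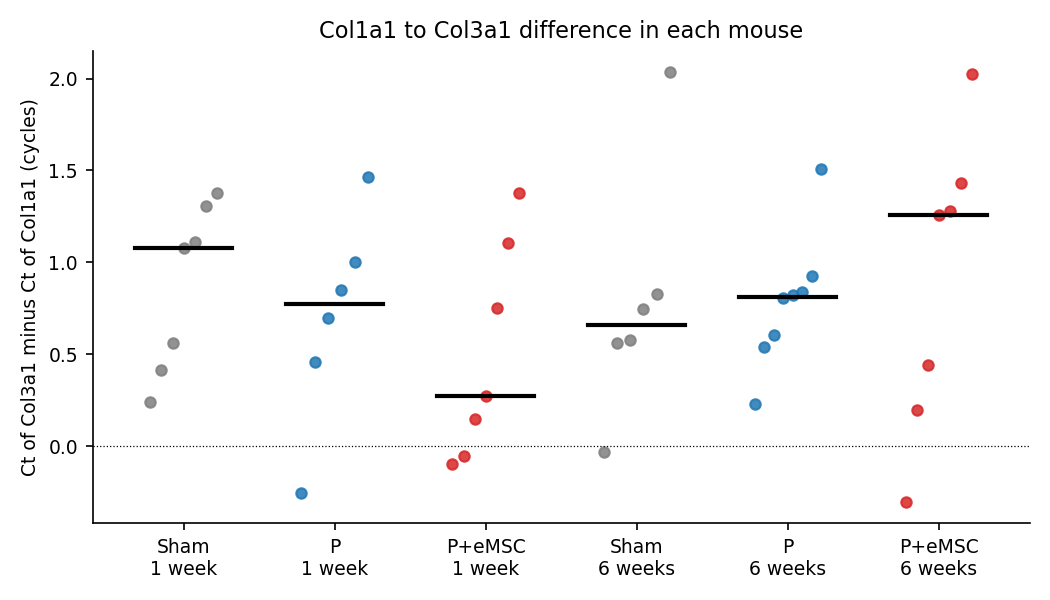
Ct of *Col3a1* minus Ct of *Col1a1* in each mouse, in cycles, by group. Points are mice, bars group medians, and the dotted line marks equal Ct. Medians run from 0.27 (P+eMSC, 1 week) to 1.26 (P+eMSC, 6 weeks), and the groups overlap.

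None of the 9 comparisons of the difference passed the threshold, and adjusted over the 9 by Benjamini-Hochberg each exact Mann-Whitney p was 1. P differed from the sham controls by -0.17 cycles at 1 week (exact 95% interval -0.81 to 0.46, exact p = 0.731) and by 0.070 at 6 weeks (-0.53 to 0.68, exact p = 0.662). P+eMSC differed from the sham controls by -0.34 at 1 week (-1.16 to 0.30, exact p = 0.209) and by 0.33 at 6 weeks (-0.87 to 1.28, exact p = 0.945). Against P, P+eMSC differed by -0.28 at 1 week (-0.95 to 0.53, exact p = 0.628) and by 0.34 at 6 weeks (-0.64 to 0.89, exact p = 0.867).

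With time the difference shifted by -0.28 cycles in the sham controls (exact 95% interval -0.74 to 0.65, exact p = 0.836), by 0.015 with P (-0.54 to 0.79, exact p = 1) and by 0.33 with P+eMSC (-0.56 to 1.34, exact p = 0.318). These intervals are much narrower than those of the levels. For P against the sham controls at 6 weeks, the interval of the difference allows between 0.69 and 1.60 times the sham ratio of *Col1a1* to *Col3a1*, whereas that of the *Col3a1* level allows between 0.11 and 1.39 times the sham level.

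**Figure D4:**
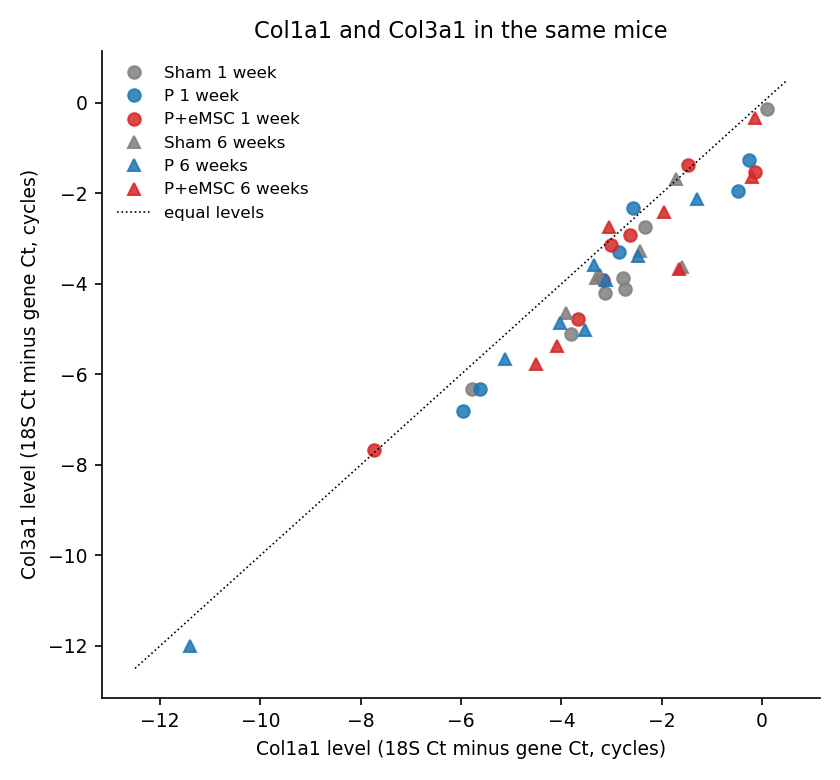
*Col3a1* level against *Col1a1* level in the same mouse, both as the Ct of 18S minus the Ct of the gene in cycles. Each point is 1 mouse, circles are 1 week and triangles 6 weeks, and the dotted line marks equal levels. The mice lie along a narrow band, 36 of the 41 below this line, from mouse 52 at the lower left to mouse 2269 at the upper right.

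Among all 1431 pairs of the 54 genes, the pair of *Col1a1* and *Col3a1* had the 20th smallest within-group SD of the Ct difference, and the median pair had 1.60 cycles. The smallest, 0.34, was that of *Col6a1* and *Col6a2*, which encode 2 chains of collagen VI, the beaded microfibril collagen around cells. The 5 genes nearest to *Col1a1* by this measure over 41 mice (40 for *Col6a1*) were *Col3a1* (0.59), *Cd44* (0.72), a receptor for hyaluronan, *Col6a2* (0.77), *Col6a1* (0.77) and *Mmp2* (0.82), the gelatinase of fibroblasts. The 5 nearest to *Col3a1* were *Col1a1*, *Col6a2* (0.67), *Mmp2* (0.68), *Col6a1* (0.71) and *Ccr2* (0.74), a chemokine receptor of monocytes. The third collagen VI chain, *Col6a3*, lay further off, 13th for *Col1a1* (0.99) and 16th for *Col3a1* (0.98).

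Of the cell type markers in the panel, *Ccr2* of monocytes ranked 7th for *Col1a1* and 5th for *Col3a1*, and *Mrc1* of macrophages 11th and 9th. *Cdh2* of mesenchymal cells ranked 14th and 11th, and *Ccr1* of leukocytes 27th and 22nd. *Cdh1*, the cadherin of epithelium, ranked 52nd of 53 for both, with within-group SDs of 2.58 and 2.54 cycles, and it was detected in 40 of the 41 mice. Both Ct values of a pair come from the same RNA sample. Whatever raised or lowered all transcripts of a sample alike thus cancels out of their difference. It remains in the level of each gene, and so in how the levels of the collagens moved together. The median level of the panel had a within-group SD of 1.79 cycles, and relative to it the SD of *Col1a1* was 0.94 and that of *Col3a1* 0.84. The 18S Ct alone had an SD of 0.28.

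**Figure D5:**
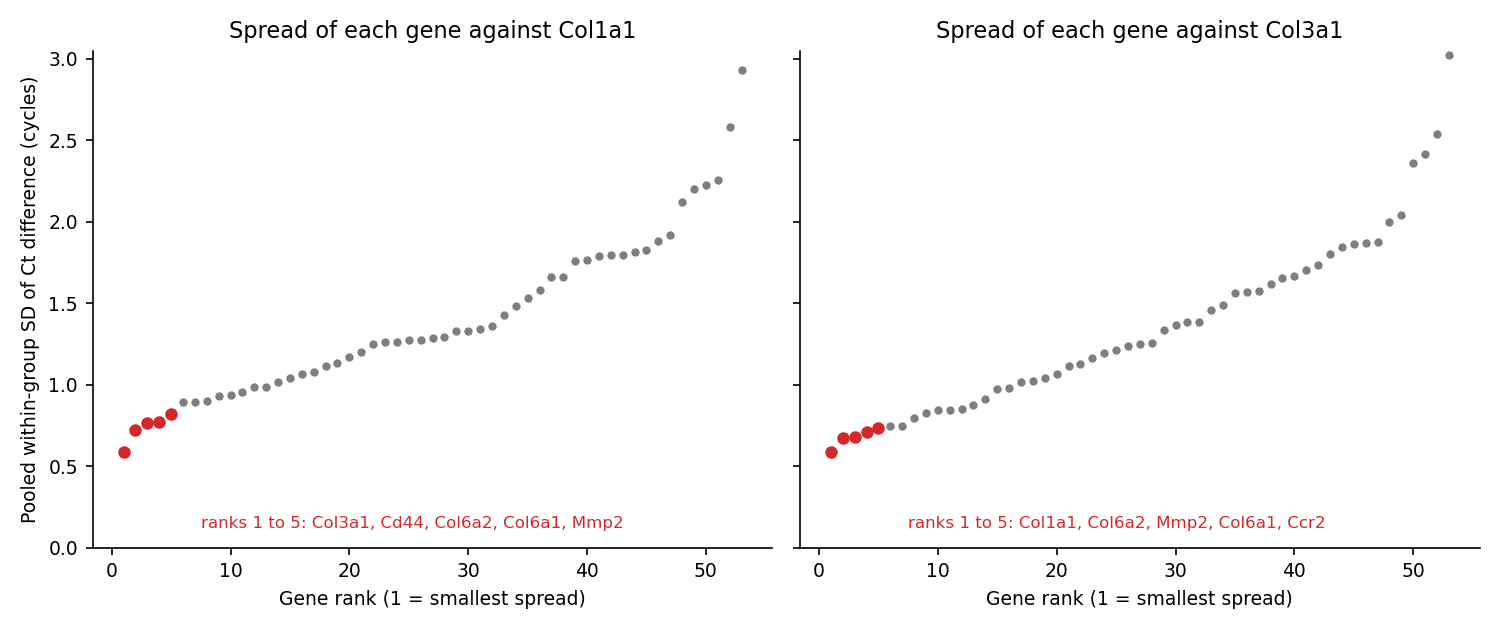
Pooled within-group SD of the Ct difference between *Col1a1* (left) or *Col3a1* (right) and each of the other 53 genes, in cycles, in rank order. Red points are the 5 genes with the smallest SD, named in each panel, and the other collagen is first in both with 0.59.

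The 3 collagen VI chains were called in none of the 9 comparisons. With P against the sham controls at 6 weeks their shifts ran from -0.98 to -0.74 cycles, and with P+eMSC against P from 0.74 to 1.18, beside panel medians of -0.83 and 1.15. Of the 5 genes of transforming growth factor-β signalling reported here, 4 fell with P against the sham controls at 6 weeks, with a list median of -1.04, in a comparison that called 25.9% of the panel, all lower. They were the ligands *Tgfb2* (-1.31, exact p = 0.00816) and *Tgfb3* (-2.07, exact p = 0.00799), the receptor *Tgfbr1* (-1.04, exact p = 0.02) and *Ctgf*, a matricellular target (-1.04, exact p = 0.0221). Among the 5 cell type markers of the panel, the mesenchymal *Cdh2* also fell (-0.84, exact p = 0.05128). The shifts of the others, none of them called, were -1.30 for *Cdh1*, -1.10 for *Ccr2*, -1.27 for *Mrc1* and 0.34 for *Ccr1*. The part of cell composition in these values was not tested.

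In P+eMSC against P at 6 weeks, 3 of these 5 rose, namely *Tgfb3* (2.24, exact p = 0.00932), *Tgfbr1* (1.39, exact p = 0.00591) and *Ctgf* (1.27, exact p = 0.0262), and the list median was 1.27, beside 18.5% of the panel called, all higher, and a panel median of 1.15. The P mice are those of P against the sham controls, so these rises are not separate from the falls there. *Tgfb1* had shifts of -0.55 and 1.15 in these comparisons and was called in neither. In the sham controls *Tgfb2* and *Tgfb3* rose from 1 to 6 weeks (1.32 and 0.64, exact p = 0.035 for both), and *Tgfb3* was lower with P at 1 week (-0.63, exact p = 0.05128). No gene of this list was called in the other 5 comparisons. None of these calls held when the panel median replaced 18S, where *Tgfbr1* (0.15 and -0.049 in the 2 comparisons at 6 weeks) and *Ctgf* with P (0.14) also changed sign. At 6 weeks that median included *Tgfb3* and *Tgfbr1* themselves, so it cannot test a change shared with the panel.

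Of the 7 matrix proteases and inhibitors, 3 fell with P against the sham controls at 6 weeks, all tissue inhibitors of metalloproteinases. These were *Timp2* (-1.70, exact p = 0.00133), *Timp3* (-1.84, exact p = 0.00133) and *Timp4* (-1.95, exact p = 0.02), and the list median was -1.30. Of the whole panel 25.9% was called here, with a median of -0.83. *Timp2* and *Timp3* were the 2 genes of the panel with an adjusted p below 0.05 in this comparison (0.036, exact Mann-Whitney test). Both tests included mouse 52, which gave no Ct for 31 of the 54 genes. The adjusted p-values without that mouse are not given here. In P+eMSC against P at 6 weeks *Mmp2* (1.41, exact p = 0.0401) and *Timp3* (1.90, exact p = 0.0205) rose, with a list median of 1.41. The integrin subunit *Itgb1*, part of the collagen receptors of fibroblasts, fell with P (-1.64, exact p = 0.00466) and was higher with P+eMSC than with P (1.68, exact p = 0.014), while *Cd44* was called in neither. Both comparisons use the same P mice, so the falls and rises of *Itgb1* and *Timp3* are not separate findings. Against the panel median, which here included these genes themselves, the called shifts of this paragraph kept their sign, but none was called. *Cd44* changed sign there in both comparisons (1.27 and -0.65), as did *Mmp2* with P (0.0088).

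Each gene was also set against *Col3a1* in the same mouse, and then against *Col1a1*. This asks which transcripts differed relative to the fibrillar collagens, without 18S. Since the collagens moved together from mouse to mouse, a call against both is not an independent check of a call against either. In P against the sham controls at 6 weeks 9.43% of the 53 other genes were called against *Col3a1* and 4 of these 5 also against *Col1a1*. Relative to *Col3a1*, *Timp2* fell by 0.78 cycles (exact p = 0.0127), *Timp3* fell by 1.56 (exact p = 0.02) and *Vegfa*, an angiogenic factor, fell by 1.28 (exact p = 0.0426). *Il1b*, a cytokine of activated macrophages, rose by 2.98 (exact p = 0.05128) in the 7 P mice in which it was detected. The adjusted p of these 5 genes was 0.413 each in the exact Mann-Whitney test. *Il1b* also rose relative to *Col3a1* with P at 1 week, by 1.93 cycles, as did the chemokine gene *Ccl12*, by 1.39 (exact p = 0.05128 and adjusted p = 0.597 for both, 3.77% of the genes called).

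Of the 9 comparisons, the largest share called against *Col3a1*, 15.1% or 8 of 53 genes, was found for P+eMSC against P at 1 week, where no gene was called against 18S. All 8 were lower relative to *Col3a1* with P+eMSC. Relative to *Col1a1*, which moved with *Col3a1* and is thus no separate check, 6 of them were also called lower. These 6 were the monocyte chemokines *Ccl2* (-1.77 cycles, exact p = 0.014) and *Ccl7* (-1.59, exact p = 0.0221), the chemokine receptor *Ccr1* (-1.15, exact p = 0.0221), *Il10* (-1.74, exact p = 0.00866), *Cd44* (-1.14, exact p = 0.0221) and *Timp1* (-1.43, exact p = 0.05128), all against *Col3a1*. *Ccl12* and *Mmp19* were called against *Col3a1* only. Without mouse 78 the count was also 8. After adjustment over the 53 genes none of these p-values passed, the smallest adjusted exact Mann-Whitney p being 0.196.

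In the sham controls, *Col6a1* rose from 1 to 6 weeks relative to *Col3a1* by 0.82 cycles (exact p = 0.00816) and relative to *Col1a1* by 0.97 (exact p = 0.014), and *Col6a2* relative to *Col3a1* by 0.69 (exact p = 0.05128). With P, *Ccr2* fell from 1 to 6 weeks relative to both (by 0.89 and by 0.99, exact p = 0.0426 for both), and *Il10* relative to *Col3a1*. In each of these intervals of time 3.77% of the genes were called against *Col3a1*, and none had an adjusted p below 0.05 in the exact test (the smallest was 0.432, for *Col6a1*). Relative to the collagens 3.77% were called for P+eMSC against the sham controls at 1 week, none of them against *Col1a1*, 1.89% for P+eMSC against P at 6 weeks, and 0% for P+eMSC against the sham controls at 6 weeks and for P+eMSC with time.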

How the data were processed

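The authors extracted total RNA from skin explants, made and preamplified cDNA (14 cycles) and ran TaqMan assays on a Fluidigm dynamic array. They deposited Ct values per mouse, with 999 or no value where undetected (40 of the values of the 54 targets), and linear fold change ratios made as 2 to the minus ΔΔCt against 18S and the sham controls. The deposited fold changes of *Col1a1* and *Col3a1* lay within 0.01 (log2) of those calculated here in 40 of 41 mice. The exception, mouse 2356 (labelled P, 6 weeks), matched the 1 week sham calibrator and was kept as labelled. There is no read depth in qPCR, and the precision of the group comparisons depends on the number of mice and on the spread between them.

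Levels were 18S Ct minus gene Ct. Groups followed the labels and were compared with two-sided exact Mann-Whitney tests over all rank sums, on genes with at least 4 values a group, with Hodges-Lehmann shifts and exact 95% intervals. Genes with p up to 0.0513, the limit used in the study's methods, were called. Benjamini-Hochberg adjustment ran over the 54 genes, over 53 with a collagen as reference, and for the *Col1a1* to *Col3a1* difference over the 9 comparisons. Interactions of treatment and week used limma on all mice. The tests treat mice as independent, but labels do not say that mice within a group were litter or cage independent. The paper made a single cell line from each woman's biopsy. The labels do not name the donor of a P+eMSC mouse, so donor differences could not be separated. Named genes were *Col1a1*, *Col3a1*, members of the matrix lists that were called, marker genes, and the 5 genes with the smallest pooled within-group SD of the Ct difference to each collagen. The genes named against the collagens as references were chosen after their values were seen. The members and lists were chosen with earlier results of these data known. The matrix lists held 3 collagen VI chains, 5 transforming growth factor-β genes (*Tgfb1*, *Tgfb2*, *Tgfb3*, *Tgfbr1*, *Ctgf*, with 1 further gene of the list not reported here), 7 proteases and inhibitors (*Mmp2*, *Mmp9*, *Mmp19*, *Timp1* to *Timp4*) and *Itgb1* with *Cd44*.

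Alternatives were the panel median as reference, other thresholds, limma, exact permutation of group means, the deposited fold changes, mouse 2356 at 1 week, permutation within animal number series (below 1000 or above 2000), undetected values at the floor, a filter on genes with a median Ct above 25, and leaving out each mouse. The panel median held the genes detected in all mice of a comparison, both collagens among them. It thus takes up part of any change they share with the panel. Sequences and positions came from RefSeq (GRCm38.p6). Tests were checked on simulated data. Python 3.11.15 (numpy 2.4.6, pandas 2.3.3, scipy 1.17.1, matplotlib 3.10.9) and R 4.3.3 (limma 3.58.1) were used.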

Additional observations from a re-analysis of the deposited data

Results flagged for a closer look

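In the P group at 6 weeks, mouse 52 lay far below the other 7 mice in *Col1a1* (-11.4, next lowest -5.12) and in *Col3a1* (-12.0, next lowest -5.66). In 18 tests of the lowest and highest mouse of a group by Dixon's ratio, 3 values in each of 6 groups, these were the 2 that passed the critical value, and chance passes about 1 in 20. Both are the same mouse and the same 18S Ct, in genes that moved together, so they are not 2 independent passes. The same mouse gave no Ct for 31 of 54 genes, and its Ct difference between *Col3a1* and *Col1a1* was 0.60, inside the range of its group.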

How the results depend on the processing

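No shift of *Col1a1*, of *Col3a1* or of their difference in the 9 comparisons, and neither interaction, crossed its threshold under any alternative run, the smallest p being 0.0707 (*Col1a1*, P+eMSC against P at 6 weeks). Of 190 alternative values 167 kept their direction and 23 changed it, and of 477 values with 1 mouse left out 423 kept it and 54 did not. A direction of a shift close to 0 carries little, and the cause of the changes was not tested. No paired analysis was possible because the groups share no animal numbers. *Gapdh* as reference was not run, since it is not in the table used here.

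With the panel median as reference, the *Col1a1* shift turned to 0.56 and the *Col3a1* shift to 0.58 (P against sham, 6 weeks), *Col1a1* to 0.056 (P+eMSC against sham, 1 week), the pair to -0.45 and -0.17 (sham, with time), to -0.25 and -0.60 (P+eMSC, with time) and to -0.35 and -0.38 (P+eMSC against P, 6 weeks). The interactions with P turned to 0.30 and 0.13, and that of *Col3a1* with P+eMSC to -0.18, or -0.15 with the number series as a covariate. By limma and by the permutation test of the mean, *Col1a1* turned to -0.035 (P against sham, 1 week), the difference to -0.0014 (P against sham, 6 weeks) and *Col3a1* to 0.037 (P+eMSC against P, 1 week). Within the number series, *Col1a1* turned to -0.44 and *Col3a1* to -0.84 (P against sham, 1 week), and *Col3a1* to 0.14 (P+eMSC against P, 1 week). With mouse 2356 at 1 week the difference with time in P was -0.014.

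Mice numbered below 1000 and above 2000 gave opposite signs in 6 of 9 comparisons for *Col1a1*, 5 for *Col3a1* and 7 for the difference. Leaving out each mouse in turn turned the sign of the following shifts. *Col1a1* ran from -0.18 to 0.29 (P against sham, 1 week), -0.29 to 0.13 (P+eMSC against sham, 1 week), -0.11 to 0.59 (sham, with time), -0.020 to 1.24 (P+eMSC, with time) and -0.72 to 0.20 (P+eMSC against P, 1 week). *Col3a1* ran from -0.19 to 0.93 (P+eMSC, with time) and -0.73 to 0.42 (P+eMSC against P, 1 week). The difference ran from -0.38 to 0.044 (P against sham, 1 week), -0.13 to 0.51 (P+eMSC against sham, 6 weeks), -0.45 to 0.020 (sham, with time), -0.084 to 0.12 (P, with time) and -0.086 to 0.45 (P+eMSC against P, 6 weeks). Other shifts kept their sign but moved by over 1.5-fold, among them *Col3a1* for P against sham (0.020 to 1.48 at 1 week, -1.19 to -0.35 at 6 weeks) and *Col1a1* for P+eMSC against sham at 6 weeks (0.0090 to 1.06). The interactions with P+eMSC ran from -0.10 to 1.17 for *Col1a1* and -0.50 to 0.62 for *Col3a1*.

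The number of panel genes called moved more. For P against sham at 1 week it was 3, with 0 at an adjusted p below 0.05 and by limma, 5 against the panel median and 1 to 4 without a mouse (1 without mouse 132, 133, 125 or 400). For P against sham at 6 weeks it was 14, with 2 at an adjusted p below 0.05 (mouse 52 included) and 7 against the panel median. For P+eMSC against sham it was 0 in both weeks, 1 within the number series at 1 week, and 0 to 1 without a mouse at 6 weeks (1 without mouse 408). With time in the sham controls it was 2, with 0 at an adjusted p below 0.05, by limma and against the panel median, 1 by the permutation test and 0 to 5 without a mouse (5 without mouse 2269, 4 without 123, 1 without 401, 2346, 122, 126 or 125, and 0 without 120, 119 or 2354). With time in P it was 0, with 1 when mouse 2356 was at 1 week or undetected values were at the floor, and 0 to 1 without a mouse (1 without mouse 2356 or 2307). With time in P+eMSC it was 0, with 1 by the permutation test and 0 to 9 without a mouse (9 without mouse 2358, 4 without 60, and 1 without 2399, 10 or 2350). For P+eMSC against P it was 0 at 1 week, 5 against the panel median and 0 to 1 without a mouse (1 without mouse 10 or 2358). At 6 weeks it was 10, with 0 at an adjusted p below 0.05, 2 against the panel median and 8 to 19 without a mouse (19 without mouse 60 and 18 without 2210). Against *Col3a1*, leaving out mouse 78 gave 4 in place of 2 genes for P+eMSC against sham at 1 week and 2 in place of 0 for P+eMSC with time, an alternative added after the data had been seen, as was *Col1a1* as reference.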
